A study of Mus musculus with 2 samples.

Results

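Expression of 10 genes of the fibroblast growth factor (FGF) system was described in cultured mouse chondrocytes. The genes were chosen by name, with earlier results of these data known. They were the receptor genes Fgfr1, Fgfr2, Fgfr3 and Fgfrl1, the coreceptor gene Klb, the ligand genes Fgf1, Fgf2, Fgf7 and Fgf18, and the receptor adaptor gene Frs2. All 10 were found among the 13138 genes of the deposited table, and 8 of them were among the 12809 genes whose mean reached 50 on the linear scale, which is 5.64 on the log2 scale. Fgf1 and Fgf18 lay below that minimum.

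The study held 2 RNA sequencing libraries of primary chondrocytes of the C57Bl/6 strain, grown as micromass cultures, which are dense drops of cells that lay down cartilage matrix. One culture was transduced with adenovirus carrying Cre recombinase, which excises DNA flanked by loxP sites, and is labelled hdac3-knockout. The other was transduced with an adenovirus carrying green fluorescent protein (GFP) as the control and is labelled wild-type. Adenoviral transduction was common to both, the labels name no floxed allele for either, and the age of the animals and the number pooled are not stated in the labels. With 1 library in each group there is no replicate and no p-value, and a difference describes this pair of libraries rather than the treatments.

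FGFs are secreted proteins that bind receptor tyrosine kinases on the cell surface together with heparan sulphate chains, and the activated receptor signals through the docking protein FRS2 to the RAS and ERK kinases. In growth cartilage FGFR3 is known as a brake on chondrocyte proliferation and matrix growth: activating mutations cause achondroplasia, and its loss gives long bones. FGFR1 is known from the perichondrium, from hypertrophic chondrocytes and from osteoarthritic cartilage, and FGFR2 from the condensing mesenchyme and the perichondrium.

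The values deposited by the authors are normalized counts on the log2 scale, in which differences of weakly expressed genes appear to be compressed. Across genes, the difference had a standard deviation (SD) of 0.15 for 1344 genes of low mean level (5.64 to 7) and 0.25 for 2665 genes of the level of most members (11 to 13). The depth of the libraries is unknown. Hdac3 itself had 10.68 in the Cre-labelled library and 10.69 in the GFP-labelled library, a difference of -0.0043, so its total did not bear out the knockout label. A total for the gene does not show whether single exons were lost, so the label could not be checked. Each library is named by its label. The chondrocyte label was borne out in both libraries by high levels of Col2a1, the main cartilage collagen (19.97 and 20.35), and Acan, the core protein of aggrecan (16.29 and 17.12). The collagen genes Col3a1 (17.16 and 16.81) and Col1a1 (16.86 and 16.99), listed here as fibroblast and perichondrial markers, had levels like that of Acan. How pure the cultures were is therefore not known.

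The start regions of the 3 members that differed by 1.5-fold or more, Fgfr3, Fgfr2 and Fgf7, are shown to let their base makeup be compared. Each is 300 bases, from 250 before to 50 after a RefSeq start on GRCm38.p6, written 5′ to 3′ on the gene's strand, with CG dinucleotides in capitals. Fgfr3 has 2 entries.
Fgfr3 upstream start, chr5:33721474-33721773, plus strand: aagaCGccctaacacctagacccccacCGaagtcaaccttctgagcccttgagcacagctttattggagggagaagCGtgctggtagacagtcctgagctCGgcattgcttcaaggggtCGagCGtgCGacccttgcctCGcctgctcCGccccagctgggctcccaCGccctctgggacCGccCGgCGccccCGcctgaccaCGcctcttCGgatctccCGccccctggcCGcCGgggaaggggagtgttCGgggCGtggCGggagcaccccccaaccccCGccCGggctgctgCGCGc
Fgfr3 downstream start, chr5:33722056-33722355, plus strand: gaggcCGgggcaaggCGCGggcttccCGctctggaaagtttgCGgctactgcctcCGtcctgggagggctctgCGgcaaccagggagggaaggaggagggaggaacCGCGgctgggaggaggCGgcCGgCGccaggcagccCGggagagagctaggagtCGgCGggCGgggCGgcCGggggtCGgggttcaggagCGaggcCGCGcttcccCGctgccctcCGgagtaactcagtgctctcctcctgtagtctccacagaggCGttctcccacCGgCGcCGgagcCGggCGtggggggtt
Fgfr2, chr7:130266759-130267058, minus strand: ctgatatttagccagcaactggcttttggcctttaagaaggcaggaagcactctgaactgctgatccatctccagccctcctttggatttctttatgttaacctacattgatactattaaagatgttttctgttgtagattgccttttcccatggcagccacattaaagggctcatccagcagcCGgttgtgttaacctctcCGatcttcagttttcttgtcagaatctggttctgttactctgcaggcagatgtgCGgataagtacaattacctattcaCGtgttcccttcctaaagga
Fgf7, chr2:126034408-126034707, plus strand: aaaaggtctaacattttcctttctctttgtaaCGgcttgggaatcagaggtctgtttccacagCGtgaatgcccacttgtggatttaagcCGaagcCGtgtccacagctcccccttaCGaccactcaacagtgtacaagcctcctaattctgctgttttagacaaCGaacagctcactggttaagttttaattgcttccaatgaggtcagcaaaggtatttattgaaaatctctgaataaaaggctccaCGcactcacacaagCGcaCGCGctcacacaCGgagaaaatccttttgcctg
Both Fgfr3 regions were rich in CG dinucleotides, with 26 and 30, and had GC contents of 69.7% and 73.0%. The Fgfr2 region had 4 CG dinucleotides and 43.7% GC, and the Fgf7 region 11 and 45.7%. The median over 32851 promoters of the same length was 7 CG dinucleotides and 52.7% GC. The regions shown for Fgfr3 and Fgfr2, both lower in the Cre-labelled library, therefore stood on opposite sides of that median. Fgfr2 has 17 annotated protein-coding transcripts, and the 1 start region shown need not stand for all of them. The GC box GGGCGG, on either strand, occurred 4 times in the upstream and 2 times in the downstream Fgfr3 region and 0 times in the other 2 regions, and 35.7% of all promoters held it. The SOX core ACAAT was found 1 time in the Fgfr2 region and in 31.0% of all promoters. The AP-1 motif TGACTCA (5.20% of promoters) and the C/EBP motif TTGCNNAA (10.8%) had 0 matches in these 4 regions. Motifs were searched on both strands, and these letters alone do not mark a bound site. Promoter entries were used for 8 of the 10 members, and Fgf1 and Fgfr1 were not among them.

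Fgfr3, the receptor best known from growth cartilage, had the largest difference of the members. Its log2 normalized count was 12.40 in the Cre-labelled library and 13.30 in the GFP-labelled library, a difference of -0.91, or 1.87-fold lower in the Cre-labelled library. The level was thus lower in the culture labelled hdac3-knockout. It was the 25th lowest difference of 12809 genes, and 4 of the 500 genes nearest to it in mean level lay lower. The 5th and 95th percentiles of the differences of those 500 genes were -0.40 and 0.52. The gene lies on chromosome 5 from 33721674 to 33737068 (GRCm38, GENCODE M21, plus strand) and has 13 annotated protein-coding transcripts. The deposited value is 1 total for the gene and does not separate splice forms.

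Fgfr2, whose splice forms IIIb and IIIc bind different FGFs, was lower as well. It had 12.25 in the Cre-labelled library and 12.95 in the GFP-labelled library, a difference of -0.70 (1.62-fold). It ranked 73rd from the lowest, and 7 of the 500 genes nearest in level lay lower. RefSeq places the gene on the minus strand of chromosome 7 from 130162451 to 130266808. The GENCODE model runs on to 133123350 and shares 314 exon bases with Ctbp2, which differed by 0.09.

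Fgfrl1 encodes a receptor of the family that binds FGFs and heparin but lacks the tyrosine kinase domain. It lay at 11.92 in the Cre-labelled library and 12.34 in the GFP-labelled library, a difference of -0.42 (1.34-fold), short of 1.5-fold. Of the 500 genes nearest in level, 17 lay lower. It is on chromosome 5 (plus strand, 108692382 to 108706924).

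Fgfr1 stood apart from the other receptors in its direction. It had 13.10 in the Cre-labelled library and 12.91 in the GFP-labelled library, a difference of 0.19 (1.14-fold), with 50 of the 500 nearest genes higher. The 5th and 95th percentiles of those genes were -0.39 and 0.54, so its difference was above that of most genes as abundant but inside that range. Fgfr1 is on chromosome 8 (plus strand, 25513654 to 25575718). Klb, the coreceptor beta-Klotho for the endocrine ligands FGF19 (FGF15 in mice) and FGF21, was weakly expressed and level, at 6.27 and 6.30 in the Cre-labelled and GFP-labelled libraries (chromosome 5, plus strand, 65348314 to 65384007).

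**Figure D1:**
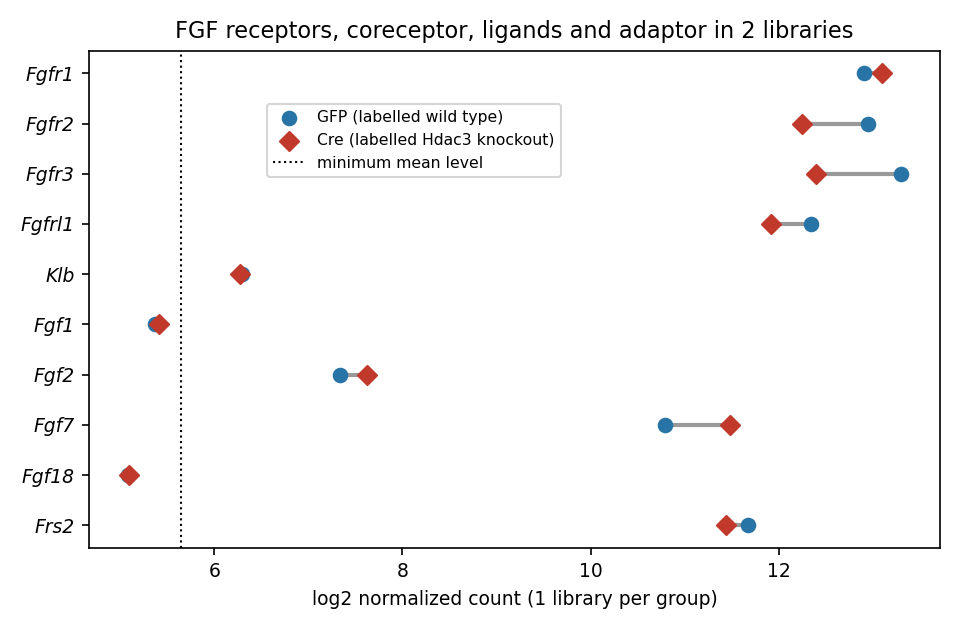
Log2 normalized count (x axis) of each of the 10 FGF genes (y axis) in the GFP-labelled library (blue circles) and the Cre-labelled library (red diamonds), with the minimum mean level of 5.64 dotted. Fgfr3 (13.30 to 12.40), Fgfr2 (12.95 to 12.25) and Fgfrl1 (12.34 to 11.92) were lower in the Cre-labelled library, and Fgf7 (10.79 to 11.48) was higher.

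The proportions of the receptors to each other differed between the libraries. The ratio of 2 genes within a library does not depend on how the libraries were scaled. Fgfr1 minus Fgfr3 was -0.39 in the GFP-labelled library and 0.70 in the Cre-labelled library, a shift of 1.10, or 2.14-fold. Fgfr1 minus Fgfr2 was -0.04 and 0.85 in the same order, a shift of 0.89 (1.85-fold), and Fgfr1 minus Fgfrl1 was 0.56 and 1.18, a shift of 0.61. Fgfr2 and Fgfr3 kept closer to each other, with a shift of 0.21.

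Levels of different genes were compared per kilobase of annotated exon, with all exons of a gene joined. The 4 receptor genes summed to 4823 per kilobase in the GFP-labelled library and 3509 in the Cre-labelled library, a difference of -0.46 on the log2 scale. Fgfr1 made up 16.1% of the sum in the GFP-labelled library and 25.3% in the Cre-labelled library. The share of Fgfr3 was 29.2% and 21.4%, that of Fgfr2 15.9% and 13.4%, and that of Fgfrl1 38.8% and 39.8%. Among the 3 receptors with a kinase domain, Fgfr3 had the highest value per kilobase in the GFP-labelled library (1410, against 779 for Fgfr1 and 765 for Fgfr2). In the Cre-labelled library Fgfr1 had the highest (889, against 752 for Fgfr3 and 472 for Fgfr2). With the longest coding transcript as the length, Fgfr1 had 19.1% and 30.0% and Fgfr3 29.8% and 21.8%, and the first place among the kinase receptors again passed from Fgfr3 (2378 per kilobase) to Fgfr1 (1742). No spread between libraries of a group is known, so neighbours in these orders cannot be separated. Places among the 4 receptors depended on the length. Fgfrl1 was first of the 4 in both libraries by joined exons and the second in both by the longest transcript. In the GFP-labelled library Fgfr2 lay below Fgfr1 by joined exons (765 against 779) and above it by the longest transcript (1832 against 1525). In the Cre-labelled library Fgfr2 was the lowest of the 4 by both lengths.

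**Figure D2:**
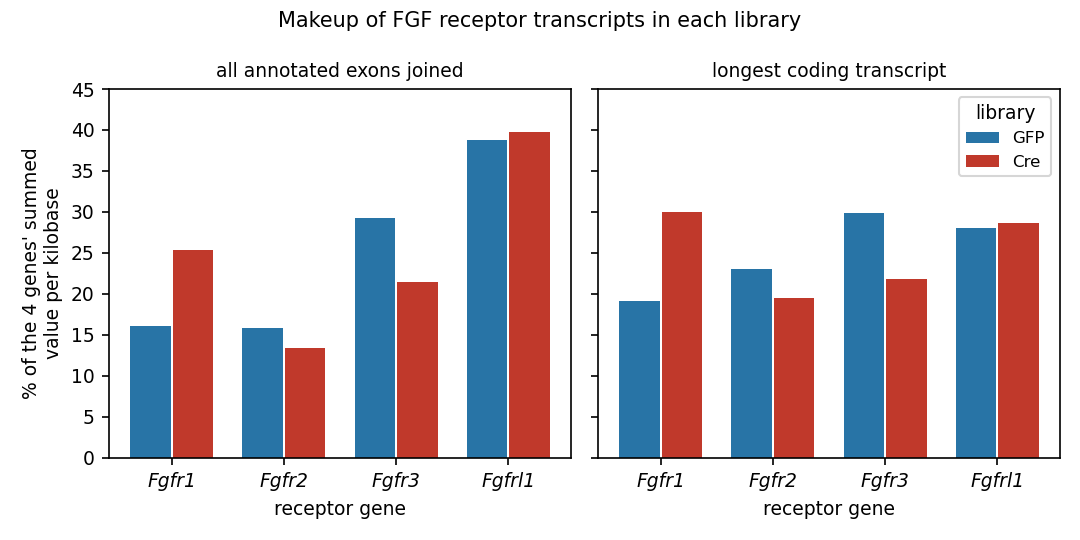
Share of the summed value per kilobase of 4 FGF receptor genes (y axis, percent) held by each gene (x axis) in the GFP-labelled library (blue) and the Cre-labelled library (red), with 1 library per bar and no error; the left panel divides by all annotated exons joined and the right panel by the longest coding transcript. In both panels the Fgfr1 bar is higher in the Cre-labelled library (25.3% against 16.1% on the left) and the Fgfr3 bar is lower (21.4% against 29.2%).

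Of the ligands, Fgf7 was the one with a sizeable level and a sizeable difference. FGF7, also called keratinocyte growth factor, is made by mesenchymal cells and binds mainly the IIIb form of FGFR2. Its log2 normalized count was 11.48 in the Cre-labelled library and 10.79 in the GFP-labelled library, a difference of 0.68, or 1.61-fold higher in the Cre-labelled library. The total of the receptor gene Fgfr2 was lower in that library, but it does not separate the IIIb form, and a relation between the genes was not tested. Fgf7 ranked 208th from the highest of 12809 genes, and 8 of the 500 nearest in level lay higher. The gene is on chromosome 2 (plus strand, 126034658 to 126091185). Per kilobase of joined exons it had 878 in the Cre-labelled library and 546 in the GFP-labelled library. Its place among the 10 members by that length was the third in the former and the fifth in the latter, while by the longest coding transcript it was the fifth in both (1068 and 664).

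The other ligands were weakly expressed. Fgf2, the basic FGF that is stored in the pericellular matrix of cartilage, had 7.62 in the Cre-labelled library and 7.34 in the GFP-labelled library, a difference of 0.29 (1.22-fold), with 50 of the 500 nearest genes higher. It lies on the plus strand of chromosome 3 from 37348346 to 37410108 and shares 640 exon bases with Nudt6 on the opposite strand. Nudt6 was itself higher in the Cre-labelled library, at 8.90 against 8.56, a difference of 0.33. How the counting used strand is not given in the sources used here, so reads from the shared bases cannot be told apart, and the value of Fgf2 is uncertain.

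Fgf18, a ligand of growth cartilage that signals through FGFR3, was near the lowest level of the table, at 5.10 and 5.08 in the Cre-labelled and GFP-labelled libraries. Fgf1, the acidic FGF that binds every FGF receptor, had 5.42 and 5.37. Only 18 genes of the table had a lower mean level than Fgf18, and 154 a lower one than Fgf1. No fold is read from either gene. Their values per kilobase are not ranked either, since at the lowest levels of the table these follow the length of the gene. Per kilobase of joined exons, Fgf2 had 29.1 in the Cre-labelled library and 23.8 in the GFP-labelled library, and Klb 17.0 and 17.3.

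Frs2, the docking protein that links the receptors to GRB2 and SHP2, had 11.44 in the Cre-labelled library and 11.68 in the GFP-labelled library, a difference of -0.24 (1.18-fold). Of the 500 genes nearest in level, 29 lay lower, and the 5th percentile of those genes was -0.25, so its difference lay just inside the range that holds 90% of them. Frs2 is on the minus strand of chromosome 10 (117069427 to 117148534).

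Counted by size, 2 of the 8 members over the minimum were at least 1.5-fold lower in the Cre-labelled library (Fgfr2 and Fgfr3), where 0.952% of all 12809 genes were, and 1 was at least 1.5-fold higher (Fgf7), where 2.25% of all genes were. The members nearest to the threshold of 0.58 on the log2 scale were Fgf7 at 0.68 and Fgfr2 at -0.70 inside it and Fgfrl1 at -0.42 outside it. None was 2-fold higher or lower, against 0.734% and 0.0703% of all genes. The median difference of the 8 was -0.13, with 5 of them below 0, and the median of all genes was -0.00041, with 50.1% below 0. At a threshold of 0.32 on the log2 scale, 3 members were lower (Fgfrl1 added) and 1 was higher, against 4.36% and 6.02% of all genes. The members were chosen with earlier results of these data known, so the shares of all genes give scale only and do not test the set.

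**Figure D3:**
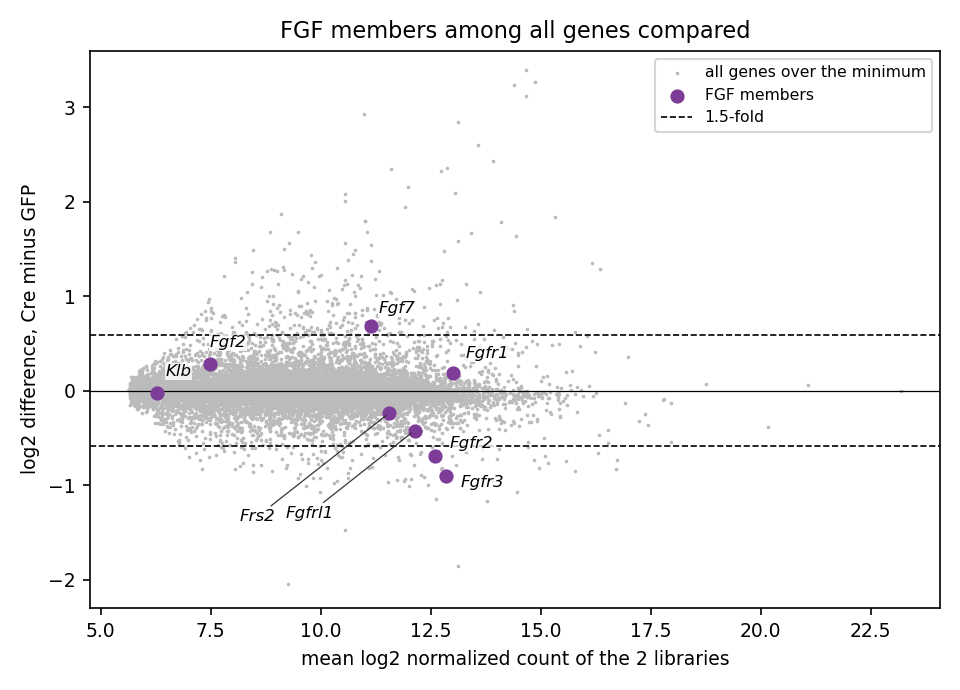
Difference of the log2 values, Cre minus GFP (y axis), against the mean log2 normalized count of the 2 libraries (x axis) for 12809 genes (grey) and the 8 FGF genes over the minimum (purple, named), with dashed lines at 1.5-fold. Fgfr3 (-0.91) and Fgfr2 (-0.70) lie below the lower line and Fgf7 (0.68) above the upper line, while Fgfr1, Fgfrl1, Fgf2, Frs2 and Klb lie between them.

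By mean level and difference together, the genes nearest to Fgfr3 were Aff3, Smoc2, Frzb, Cdkn1c and Odz4. Aff3, a nuclear protein gene, differed by -0.92 and lay at a distance of 0.07 on the plane of the 2 log2 measures. Smoc2, which encodes a secreted calcium-binding matrix protein, differed by -0.82, the Wnt antagonist gene Frzb by -0.83, the cell cycle inhibitor gene Cdkn1c by -0.79 and the teneurin gene Odz4 by -0.69. With 2 libraries, this nearness describes level and size only.

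Markers of cell types differed between the libraries along with these genes. All 11 chondrocyte markers in the table had a difference below 0, where 50.1% of all genes did. Their median was -0.42, with values from -0.89 for the matrilin gene Matn3 to -0.04 for Comp. Of the 11, 4 were at least 1.5-fold lower, where 0.952% of all genes were. After Matn3 came the aggrecan gene Acan (-0.83), the link protein gene Hapln1 (-0.77) and Matn1 (-0.66). The summed linear level of the 11 was 1559320 in the Cre-labelled library and 2121990 in the GFP-labelled library. Col2a1, which differed by -0.38, had the highest level of the 11 in both and weighed most in that sum. The difference of Fgfr3 (-0.91) was close to that of Matn3, the lowest marker, and that of Fgfr2 (-0.70) lay between those of Hapln1 and Matn1. The difference of Fgfrl1 was about equal to the median of the markers. Sox9, the master transcription factor of cartilage, differed by -0.39. In these bulk samples, fewer cells of a type and less RNA per cell cannot be told apart.

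Of 9 macrophage and osteoclast markers, 7 lay above 0, with a median of 0.22, while 50.1% of all genes lay below 0. Their summed level was 51077 in the Cre-labelled library against 33405 in the GFP-labelled library. The lysozyme gene Lyz2 had the highest level of the 9 in both (14.82 and 13.98) and weighed most in that sum. Emr1, the F4/80 antigen gene, was 2.11-fold and the phosphatase gene Acp5 and the receptor gene Cd14 each 2.06-fold higher in the Cre-labelled library. Of all genes, 0.734% were at least 2-fold higher. Lyz2 differed by 0.84. Tyrobp differed by 0.22, Ctsk by 0.10, the colony-stimulating factor receptor gene Csf1r by 0.08, Cd68 by -0.05 and Mrc1 by -0.73, all named after their values were seen. Of 7 fibroblast and perichondrial markers 3 lay above 0, with a median of -0.0027 that turned to 0.0049 at equal totals, and summed levels of 358272 and 318793. The proteoglycan gene Dcn (0.47), the growth factor receptor gene Pdgfra (0.43) and the collagen gene Col3a1 (0.35) were its higher members, and the matrix gene Postn was at -0.30. All 6 osteoblast markers lay below 0, with a median of -0.21 and summed levels of 4892 and 5863, led by the transcription factor gene Sp7 (-0.47), the bone sialoprotein gene Ibsp (-0.30), Runx2 (-0.23) and the phosphatase gene Alpl (-0.19).

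The 3 endothelial markers over the minimum had summed levels of 525 and 502, with Pecam1 at 0.23, Kdr at -0.13 and Cdh5 at 0.10. The 3 skeletal muscle markers had 2115 and 1429.5, all above 0, with the titin gene Ttn at 0.67, the embryonic myosin gene Myh3 at 0.35 and the desmin gene Des at 0.31. Snorc, Adgre1 (which the table holds under its older name Emr1), Tek, Myod1, Myog and Ckm were not in the table and Emcn lay below the minimum. The part of these shifts in the differences of Fgfr3, Fgfr2, Fgfrl1 and Fgf7 was not tested.

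Other ligands, receptors and coreceptors of the FGF system were listed as well. Of 31 listed genes 15 were in the table, all over the minimum. Of these, 9 lay below 0, where 50.1% of all genes did, and the median was -0.05. At 1.5-fold 0 were higher or lower, where 2.25% and 0.952% of all genes were, shares at which so short a list need hold none. Only 5 reached a mean of 500, and differences of weakly expressed genes appear to be compressed. The receptor gene Fgfr4 was weakly expressed, at 6.84 in the Cre-labelled library and 7.24 in the GFP-labelled library, a difference of -0.40. The Klotho family gene Lctl differed by -0.35 and the endocrine ligand gene Fgf21, whose coreceptor is Klb, by -0.34 (7.43 against 7.77). Fgfr1op, a centrosomal protein gene named for a fusion with FGFR1, differed by 0.28. Fgf10, another ligand of the IIIb form of FGFR2, differed by 0.14 (7.86 against 7.72), named here after its value was seen. The chondrocyte ligand gene Fgf9 and the hormone gene Fgf23 were not in the table and were not analysed here.

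The transducers below the receptors ranged from -0.30 to 0.37. Of 26 adaptor and RAS-ERK genes, 15 lay above 0, with a median of 0.03, and 0 were 1.5-fold higher or lower, where 2.25% and 0.952% of all genes were, shares at which a list of this size need hold none. The MEK gene Map2k1 differed by 0.37 (11.68 against 11.31), the adaptor gene Gab1 by -0.30 and the adaptor gene Shc1 by 0.22.

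Most feedback inhibitors and targets of FGF-ERK signalling lay a little higher in the Cre-labelled library, but their summed level was lower there. Of 18 measured genes 15 lay above 0, with a median of 0.15, while 50.1% of all genes lay below 0. At 1.5-fold 0 were higher or lower, where 2.25% and 0.952% of all genes were. The summed linear level of the 18 was 20090 in the Cre-labelled library and 21143 in the GFP-labelled library. The transcription factor gene Etv1 differed by 0.43 and the ERK phosphatase genes Dusp4 and Dusp6 by 0.36 and 0.34. All 6 Sprouty and Spred genes, which encode membrane inhibitors of RAS-ERK signalling, lay above 0, from 0.10 for Spred1 to 0.34 for Spred3. The cyclin gene Ccnd1 was the lowest, at -0.52 (11.72 against 12.25), and the immediate early gene Egr1 differed by -0.32 (named once its value was known). Il17rd, which encodes the feedback inhibitor Sef and was counted above with the receptors, differed by -0.24 (7.88 against 8.13) and is not among these 18. Genes of this list also respond to other receptors and to cytokines.

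Heparan sulphate proteoglycans carry the chains that hold FGFs at their receptors. Of 26 measured core protein and enzyme genes 15 lay above 0, with a median of 0.01, 2 were past 1.5-fold on the higher side, where 2.25% of all genes were, and 0 on the lower, where 0.952% were. Both higher genes encode syndecans, membrane-spanning core proteins. Sdc4 had 14.81 in the Cre-labelled library and 13.91 in the GFP-labelled library, a difference of 0.90 (1.87-fold), and Sdc1 had 12.14 against 11.43, a difference of 0.72 (1.64-fold). Sdc2 and Sdc3 differed by -0.23 and 0.0067. Of 5 glypican genes, whose core proteins are anchored by lipid, 4 lay below 0, from -0.35 for Gpc6 to 0.05 for Gpc2. The values of the syndecans, from -0.23 to 0.90, and of the glypicans overlapped, and the difference between these families was not tested. The glypicans, Sdc2 and Sdc3 were named after their values were seen. The chain epimerase gene Glce differed by -0.45 and the sulphotransferase gene Hs3st3b1 by -0.43.

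**Figure D4:**
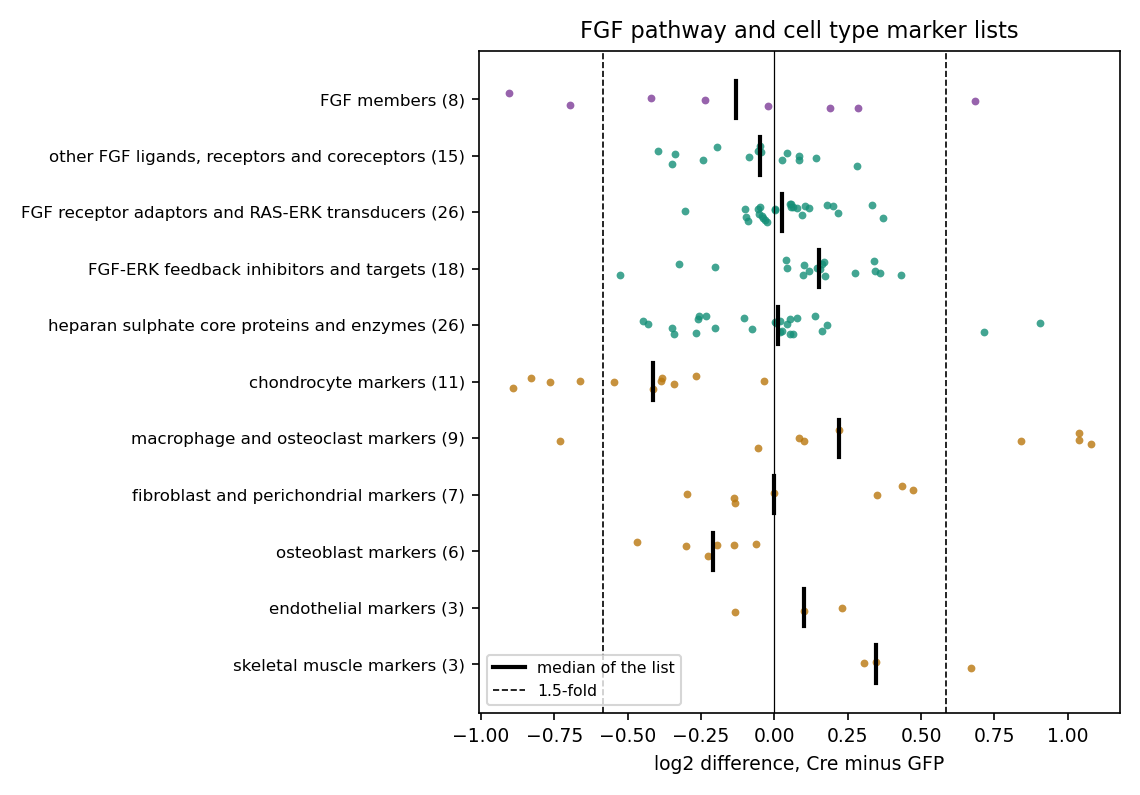
Difference of the log2 values, Cre minus GFP (x axis), of each gene over the minimum in the FGF genes described here (purple), 4 pathway lists (green) and 6 cell type marker lists (brown), with the number of genes in brackets, the median as a black bar and dashed lines at 1.5-fold. The points are jittered vertically for display. The 11 chondrocyte markers lie below 0, the feedback list has a median of 0.15, and Sdc4 (0.90) and Sdc1 (0.72) are the points beyond 1.5-fold in the heparan sulphate list.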

How the data were processed

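Per the labels' protocols, RNA was isolated with TRIzol and sequenced from Illumina TruSeq v2 mRNA libraries. The tools listed in the submitters' processing notes are TopHat2 2.0.6, HTSeq (no version) and bcl2fastq 1.8.4, with build mm10. The table deposited by the authors holds normalized gene counts on the log2 scale, 1 column per library, with their mean and their difference as GFP minus Cre. The transform is not described in the sources used here, and a regularized log is inferred from the heading rLogFC and from the narrow spread at low values. Differences here are Cre minus GFP, computed with Python 3.11.15 and pandas 2.3.3, and the counting functions were tested on simulated data.

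The members and gene lists were chosen with earlier results of these data known. Genes whose mean reached 50 on the linear scale were counted as higher or lower at 1.5-fold, by size alone. All members, Hdac3, up to 4 genes with the largest absolute difference of each other list, and the 5 genes nearest to Fgfr3 in level and difference were named. Col1a1, Col2a1, Comp, Sox9 and the Sprouty and Spred genes were named after their values were seen, and Ctbp2 and Nudt6 for their overlap with a member. Some genes of the lists are not reported here by name. Gene models are GENCODE M21 on GRCm38, matched by symbol and chromosome for 11906 of 13138 genes (90.6%), and promoters are from RefSeq. No protein sequence was used here. Alternatives were thresholds of 0.32 and 1 on the log2 scale, 2 scalings, other minimums, the mean, a pseudocount of 50 and, added after seeing the data, another gene length.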

Additional observations from a re-analysis of the deposited data

How the results depend on the processing

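At 2-fold, 0 members were lower and 0 higher in the Cre-labelled library, in place of 2 and 1 at 1.5-fold, and at a threshold of 0.32 on the log2 scale 3 were lower and 1 higher. Scaling the differences to a median of 0 or the libraries to equal totals (offsets of 0.00041 and 0.0077), no minimum and a minimum mean of 500 left the counts at 1.5-fold as they were. The median difference of the members went from -0.13 to -0.0020 without a minimum, which adds Fgf1 and Fgf18 near the lowest level of the table, and to -0.33 at the minimum of 500, which keeps 6 genes; the mean was -0.14. With a pseudocount of 50 and under both scalings, the differences of all 10 members stayed within 0.1 of the reported ones. Both scalings add a constant below 0.1 to every difference, so under them no median or member could move by that much. Without a minimum, only the endothelial list among the other lists gained a gene. Of 39 alternative medians of the other lists, 36 stayed within 0.1 without a change of sign, many of them for these reasons. The other FGF ligands, receptors and coreceptors went from -0.05 to 0.025 at the minimum of 500 (5 genes left), the fibroblast and perichondrial markers from -0.0027 to 0.0049 at equal totals, and the skeletal muscle markers to 0.67 with 1 gene left. Depth is unknown, so weak genes have no limit of detection. No paired analysis was possible because there was 1 library in each group.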
